A study of Mus musculus with 16 samples.

Results

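Fmr1, its relatives Fxr1 and Fxr2, and the interacting-protein genes Cyfip1 and Cyfip2 were followed across mouse gonadal fat in 16 libraries of polyadenylated RNA. These are 5 of the 24454 genes in the deposited count table, found by NCBI gene number. Fmr1 was selected on its CPM in these libraries, which was higher under SHU9119 than under vehicle after both surgeries, so its SHU9119 differences are given as a description with no test. The other 4 genes were included as protein family members and partners, not for their levels, and all 5 genes passed the filter on low counts.

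All mice were lean male C57BL/6J animals, 16 weeks old and fed chow. The VX_SHU group had subdiaphragmatic vagotomy, in which the vagus nerve is cut below the diaphragm, and then SHU9119, a peptide antagonist of melanocortin receptors, infused into the brain ventricles at 1 nmol per day. The VX_Veh group had vagotomy and vehicle, the Sham_SHU group sham surgery and SHU9119, and the Sham_Veh group sham surgery and vehicle. Infusions began 4 weeks after surgery and lasted 2 weeks, food was matched in calories across all groups, and each group held 4 libraries. Whether each library came from its own mouse is not stated, and p-values therefore reflect only how far these libraries spread. The design asks whether brain melanocortin blockade reaches fat tissue, and whether that depends on the vagus nerve.

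Fmr1 encodes FMRP, an RNA-binding protein that associates with ribosomes and mRNA granules and is best known as a repressor of translation in neurons; its loss causes fragile X syndrome in humans. Fxr1 and Fxr2 encode autosomal relatives with the same kind of RNA-binding domains, and the proteins can bind each other. Cyfip1 and Cyfip2 encode cytoplasmic FMRP-interacting proteins, which are subunits of the WAVE complex that starts branched actin networks downstream of the GTPase Rac1. Cyfip1 protein also binds the cap-binding factor eIF4E in mouse brain.

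Fmr1 lies on chromosome X from 68678536 to 68717963 (NCBI gene 14265, mm10, RefSeq positions), on the plus strand. Fxr1 (gene 14359) lies on chromosome 3 from 34020058 to 34069980, Fxr2 (gene 23879) on chromosome 11 from 69632971 to 69653297, Cyfip1 (gene 20430) on chromosome 7 from 55842022 to 55932633 and Cyfip2 (gene 76884) on chromosome 11 from 46193849 to 46312859. In the annotation Fxr1 overlaps Dnajc19, Cyfip1 overlaps Nipa2, and Fndc9 lies within Cyfip2. The strand setting of the counting is not given in the sources used here, so reads shared by overlapping genes cannot be assigned to one of them.

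The sequence upstream of Fmr1 is shown beside that of Fxr2, because these relatives are the members with the largest and the smallest SHU9119 difference by size. Each run ends at the base before the first annotated transcript start, on the plus strand, and comes from RefSeq on GRCm38.p6. Capitals mark 3 motifs searched on both strands, which are the NRF-1 palindrome (the first run of capitals in the Fmr1 sequence), the E-box CACGTG and the GC box GGGCGG.
Fmr1, chrX:68678291-68678535: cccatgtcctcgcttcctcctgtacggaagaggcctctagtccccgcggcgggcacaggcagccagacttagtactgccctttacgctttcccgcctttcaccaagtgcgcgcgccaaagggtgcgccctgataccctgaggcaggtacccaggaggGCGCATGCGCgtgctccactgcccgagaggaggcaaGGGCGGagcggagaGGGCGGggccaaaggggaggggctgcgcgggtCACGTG
Fxr2, chr11:69632721-69632970: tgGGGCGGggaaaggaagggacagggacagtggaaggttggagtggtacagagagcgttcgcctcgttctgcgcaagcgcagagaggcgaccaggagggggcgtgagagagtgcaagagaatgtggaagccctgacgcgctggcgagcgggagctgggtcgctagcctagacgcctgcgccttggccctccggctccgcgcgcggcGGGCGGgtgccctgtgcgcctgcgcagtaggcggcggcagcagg
The Fmr1 window held 1 NRF-1 palindrome, 1 E-box and 2 GC boxes, while the Fxr2 window held 2 GC boxes and no exact match to the other motifs. Only exact matches were searched. Near matches to the palindrome, such as the stretch gcgcctgcgc close to the end of the Fxr2 sequence, were not counted. Of 32851 promoter windows of 250 bases in the same table, 0.782% held the palindrome, 6.02% the E-box and 32.7% a GC box. Another motif, CCAAT, is in neither window and is present in 33.8% of all windows. CpG pairs numbered 21 in the printed Fmr1 sequence and 26 in that of Fxr2, against a median of 6 over all windows of 250 bases. These matches describe letters only and carry no measurement of binding.

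Library totals ran from 20425295 to 30889052 counts. Fat cell markers were abundant in every library, with Adipoq at 1205 to 3957 CPM (counts scaled to a common library size with TMM factors). Some libraries also held transcripts typical of tissue that adjoins this depot. The summed testis and sperm markers (16 genes) reached 3186 CPM in Sham_Veh4 and 1556 CPM in Sham_SHU3, against 104 to 409 CPM in the other 14 libraries. The summed epididymis markers (19 genes) were at least 500 CPM in 7 libraries, reaching 12254 CPM in VX_SHU4 and 11816 CPM in VX_Veh4. Of the 550 CPM in VX_Veh1, 535 CPM were Lcn2, which other tissues also express. The motile cilia markers (14 of 16 genes present) summed to 1386 CPM in VX_Veh1 and to 52.3 to 541 CPM in the others. Members whose level followed these sums are given with them below. In bulk tissue, fewer cells of a type and less RNA per cell cannot be told apart.

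Fmr1 was the most abundant of the 5 genes in counts and the one with the largest difference between infusions. Its level was 447, 459, 349 and 459 CPM in the Sham_SHU libraries, against 200, 219, 140 and 196 CPM in the Sham_Veh libraries. After vagotomy it was 244, 222, 345 and 234 CPM in VX_SHU, against 123, 181, 142 and 158 CPM in VX_Veh. In both comparisons every SHU9119 library lay above every vehicle library, as was the case for 5.6% of all genes after sham surgery and 2.93% after vagotomy. The log2 fold change was 1.19 ± 0.173 (SE) after sham surgery, or 2.27-fold, and 0.79 ± 0.172 after vagotomy, or 1.73-fold. Averaged over both surgeries it was 0.99 ± 0.122.

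Summed markers of Schwann cells, stroma, endothelium and smooth muscle had higher means under SHU9119 after both surgeries, and none of the 12 marker lists passed after adjustment. The summed Schwann cell markers (10 genes) were at 431 ± 86.6 CPM in Sham_SHU and 284 ± 28.3 in Sham_Veh (SD, n = 4 each; exact permutation p = 0.0571, two-sided), and at 354 ± 89.5 CPM in VX_SHU and 284 ± 37.0 in VX_Veh (exact permutation p = 0.229). Stromal markers (10 genes) summed to 4811 ± 311 CPM in VX_SHU and 3685 ± 399 in VX_Veh, with no overlap (exact permutation p = 0.0286, the smallest that 4 against 4 allows). After sham surgery they were at 4553 ± 188 CPM in Sham_SHU and 4350 ± 454 in Sham_Veh (exact permutation p = 0.457). Adjusted over the 12 marker lists, these p-values were 0.343, 0.344, 0.228 and 0.609. Endothelium markers were at 1617 ± 229 CPM in Sham_SHU and 1468 ± 231 in Sham_Veh, and at 1688 ± 242 in VX_SHU and 1418 ± 265 in VX_Veh (exact permutation p = 0.457 and 0.2). Smooth muscle markers were at 1117 ± 63.1, 1103 ± 30.4, 1355 ± 232 and 1274 ± 216 CPM in the same order (exact permutation p = 0.629 after each surgery). The part of these cells in the Fmr1 level was not tested.

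The SHU9119 differences of Fmr1 are the values that led to its choice, and nothing is read from them here about the group of genes. Of 16682 genes, 19 (0.114%) had an adjusted p under 0.05 by the edgeR quasi-likelihood test after sham surgery. After vagotomy 1 gene (0.00599%) did. For the average over both surgeries 312 genes (1.87%) did. Leaving out any 1 of the 16 libraries moved the first count by over 1.5 times, to between 0 and 982 (without Sham_SHU3), and the third to between 3 (without Sham_SHU4) and 1612 (without Sham_SHU3). Non-overlapping groups with SHU9119 higher after both surgeries were seen in 103 genes (0.617%). The difference between the SHU9119 effect after vagotomy and that after sham surgery was −0.40 ± 0.242 for Fmr1 on the log2 scale, again a description. Its 95% interval was −0.92 to 0.13, and this is not read as a test because Fmr1 was chosen on both SHU9119 differences.

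**Figure D1:**
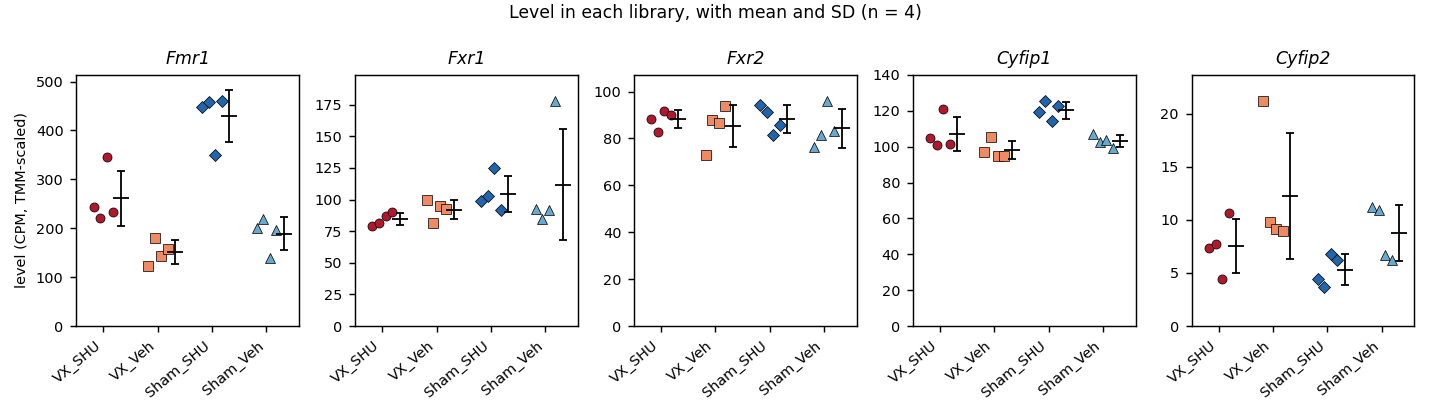
Level of each gene in every library (CPM, TMM-scaled), with the 4 groups on the horizontal axis and the mean and SD beside the points. Fmr1 stands between 349 and 459 CPM in Sham_SHU and between 140 and 219 CPM in Sham_Veh, while Fxr2 stays between 72.9 and 95.8 CPM in all 16 libraries.

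As group means, Fmr1 was at 261 ± 56.9 CPM in VX_SHU, 151 ± 24.5 in VX_Veh, 429 ± 53.2 in Sham_SHU and 189 ± 33.8 in Sham_Veh (SD, n = 4 each). The lowest VX_SHU library (222 CPM) lay just above the highest Sham_Veh library (219 CPM), and the highest VX_SHU library (345 CPM) just below the lowest Sham_SHU library (349 CPM). The VX_Veh and Sham_Veh libraries overlapped.

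The mean of Fmr1 was lower after vagotomy under both infusions. The difference averaged over both infusions did not pass the test in the edgeR fit. Under SHU9119 the 4 VX_SHU libraries (222 to 345 CPM) all lay below the 4 Sham_SHU libraries (349 to 459 CPM). The log2 fold change was −0.72 ± 0.172 (SE). Groups that do not overlap with vagotomy lower made up 2.44% of all genes in that comparison. Under vehicle the VX_Veh and Sham_Veh libraries differed by −0.32 ± 0.171. The levels of all 4 groups led to the choice of Fmr1, so its vagotomy differences within a single infusion are a description with no test. Averaged over both infusions, a contrast balanced over SHU9119 and vehicle, the difference was −0.52 ± 0.121 (edgeR adjusted p = 0.224). DESeq2 called Fmr1 lower after vagotomy in the average (adjusted p = 0.0104), and over 22 alternatives the adjusted p of the average ran from 0.0104 to 0.526.

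None of the 5 genes passed in any of the 3 vagotomy comparisons by edgeR, where 0% of all genes did. At an unadjusted p under 0.05 there were 0 of 5 under vehicle, 2 of 5 under SHU9119 and 2 of 5 in the average, Fmr1 and Cyfip1 in both cases, against 8%, 10.7% and 16% of all genes. DESeq2 called 0, 1 and 1 of them, in the same order, against 0.0659%, 0.557% and 2.45% of all genes. Fmr1 is among the genes counted, and its part in the counts under a single infusion is likewise a description. Stromal markers had a lower mean after vagotomy under vehicle, at 3685 ± 399 CPM in VX_Veh and 4350 ± 454 in Sham_Veh (SD, n = 4 each). That difference did not pass (exact permutation p = 0.0571, 0.342 adjusted over the marker lists). T and B cell markers gave the same p-values under vehicle, at 57.7 ± 6.73 CPM in VX_Veh and 71.8 ± 7.72 in Sham_Veh. Under SHU9119 both lists ran the other way. Stroma was at 4811 ± 311 CPM in VX_SHU and 4553 ± 188 in Sham_SHU (exact permutation p = 0.2). T and B cell markers were at 69.4 ± 4.31 and 60.0 ± 5.87 CPM (exact permutation p = 0.0571, 0.572 adjusted). For the interaction, 0 of the 4 partner genes passed by edgeR (0% of all genes), 0 had an unadjusted p under 0.05 (4.76% of all genes), and DESeq2 called 0 (0.048% of all genes).

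**Figure D2:**
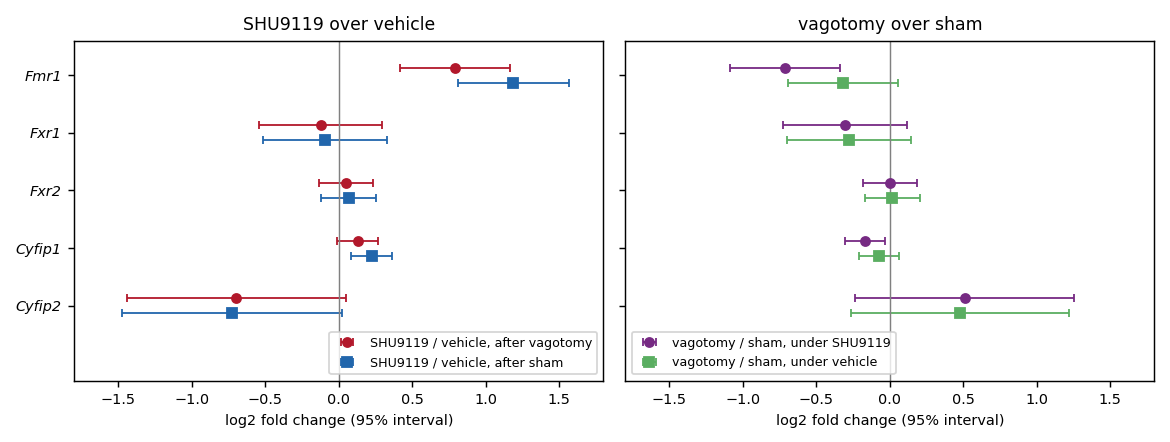
Log2 fold changes of the 5 genes with 95% intervals from the edgeR standard error and 12 residual degrees of freedom, for SHU9119 over vehicle (left) and vagotomy over sham (right). Fmr1 is at 0.79 and 1.19 in the left panel, and the intervals of Fxr1 and Fxr2 span 0 in all 4 comparisons.

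Fxr2, whose protein can bind FMRP, had group means that lay close together, although its libraries varied more within groups than those of Cyfip1 (biological coefficient of variation 10.6% for Fxr2 and 9.05% for Cyfip1). It averaged 88.3 ± 3.97 CPM in VX_SHU, 85.3 ± 8.80 in VX_Veh, 88.2 ± 5.85 in Sham_SHU and 84.3 ± 8.22 in Sham_Veh (SD, n = 4 each), and all groups overlapped. SHU9119 over vehicle gave 0.07 ± 0.0847 on the log2 scale after sham surgery, with a 95% interval of −0.12 to 0.25, and 0.05 ± 0.0846 after vagotomy, with an interval of −0.13 to 0.24 (edgeR adjusted p = 0.672 and 0.847). Vagotomy over sham gave 0.00 ± 0.0847 under SHU9119 (edgeR adjusted p = 0.996) and 0.02 ± 0.0846 under vehicle (0.951).

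Fxr1, which in mouse is abundant in muscle, heart and testis, differed between single libraries more than between groups. It was 98.8, 103, 125 and 91.8 CPM in Sham_SHU, against 92.7, 84.6, 91.9 and 178 CPM in Sham_Veh. It was 79.2, 81.8, 86.8 and 90.4 CPM in VX_SHU, against 99.7, 81.3, 94.8 and 92.6 CPM in VX_Veh. The highest levels of all 16 libraries were in Sham_Veh4 and Sham_SHU3, which were also the libraries with 3186 and 1556 CPM of testis and sperm markers. In Sham_Veh4 15 of the 16 markers had their highest level, Prm1 and Prm2 among them at 312 and 499 CPM, while germ cell Ddx4 reached 94.0 CPM against a median of 0.91 CPM. The part of these transcripts in the Fxr1 level was not tested.

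SHU9119 over vehicle was −0.10 ± 0.193 for Fxr1 after sham surgery and −0.12 ± 0.193 after vagotomy (edgeR adjusted p = 0.784 for the first, and the second did not pass either). Without Sham_Veh4 the first of these turned to 0.25, and it did not pass either way. Vagotomy over sham was −0.31 ± 0.193 under SHU9119, where the VX_SHU and Sham_SHU libraries did not overlap (79.2 to 90.4 against 91.8 to 125 CPM, as in 2.44% of all genes), and −0.28 ± 0.193 under vehicle (edgeR adjusted p = 0.547 and 0.663). Without Sham_Veh4 the difference under vehicle was 0.06. The 95% interval was −0.52 to 0.32 for SHU9119 after sham surgery.

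**Figure D3:**
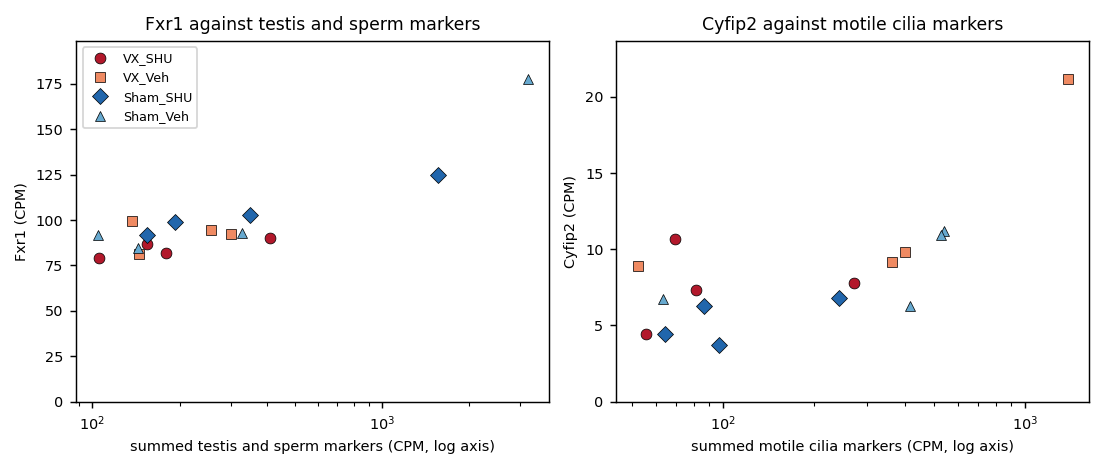
Fxr1 (CPM) against the summed testis and sperm markers, and Cyfip2 (CPM) against the summed motile cilia markers, with 1 point per library and the marker sums on log axes. Sham_Veh4 and Sham_SHU3 lie at the upper right for Fxr1 (178 and 125 CPM) and VX_Veh1 for Cyfip2 (21.1 CPM).

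Cyfip1, the broadly expressed of the 2 FMRP-interacting genes, had a slightly higher mean under SHU9119. It was 119, 125, 114 and 122 CPM in Sham_SHU, against 107, 103, 104 and 99.1 CPM in Sham_Veh. All 4 Sham_SHU libraries lay above all 4 Sham_Veh libraries, which was seen with SHU9119 higher in 5.6% of all genes. The log2 fold change of 0.22 ± 0.0631 (SE), or 1.17-fold, did not pass (edgeR adjusted p = 0.1). It passed by the DESeq2 test (adjusted p = 0.00875), with a range of 0.00875 to 0.264 over 22 alternatives. After vagotomy the levels were 105, 101, 121 and 101 CPM in VX_SHU, against 96.9, 106, 95.1 and 94.8 CPM in VX_Veh, which overlapped (0.13 ± 0.0631; edgeR adjusted p = 0.438).

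Averaged over both surgeries, Cyfip1 was higher by 0.18 ± 0.0446 on the log2 scale, 1.13-fold, and stayed just outside the threshold (edgeR adjusted p = 0.0587). It was inside it with DESeq2 size factors (adjusted p = 0.0495), by the DESeq2 test (0.00201) and without Sham_SHU3 (0.0263), with a range of 0.00201 to 0.489 over 22 alternatives. Vagotomy over sham gave −0.17 ± 0.0631 under SHU9119 and −0.07 ± 0.0631 under vehicle (edgeR adjusted p = 0.449 and 0.71).

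Cyfip2, which is prominent in neurons and lymphocytes, was the lowest of the 5 genes, and its mean was lower under SHU9119. It was 4.46, 3.71, 6.77 and 6.25 CPM in Sham_SHU, against 11.2, 10.9, 6.73 and 6.25 CPM in Sham_Veh. It was 7.31, 7.77, 4.44 and 10.6 CPM in VX_SHU, against 21.1, 9.80, 9.14 and 8.92 CPM in VX_Veh. Groups overlapped in both comparisons, and VX_Veh1 stood apart at more than any other library. The log2 fold changes were −0.73 ± 0.343 after sham surgery and −0.70 ± 0.342 after vagotomy (edgeR adjusted p = 0.258 and 0.438). The average over both surgeries was −0.71 ± 0.242 (edgeR adjusted p = 0.092; DESeq2 adjusted p = 0.037; range over 22 alternatives 0.0194 to 0.902). Without VX_Veh1 the difference after vagotomy was −0.29.

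Markers of motile cilia and of mesothelium, the lining of the body cavity, had means that moved with Cyfip2. The cilia sum was 123 ± 80.5 CPM in Sham_SHU and 386 ± 223 in Sham_Veh (SD, n = 4 each; exact permutation p = 0.143, two-sided). After vagotomy it was 120 ± 102 CPM in VX_SHU and 550 ± 578 in VX_Veh (exact permutation p = 0.143), with 52.3 CPM in VX_Veh4 as the lowest of all libraries. Mesothelium markers (9 of 10 genes present) summed to 127 ± 80.5 CPM in Sham_SHU and 247 ± 113 in Sham_Veh (exact permutation p = 0.171), and to 186 ± 90.1 CPM in VX_SHU and 404 ± 181 in VX_Veh (exact permutation p = 0.0571). Adjusted over the 12 marker lists, these p-values were 0.41 for both lists after sham surgery and, after vagotomy, 0.286 for cilia and 0.228 for mesothelium. VX_Veh1 was highest in the mesothelium sum (670 CPM) and lowest in fat cell markers (15578 CPM for 10 genes, against 25935 to 46910 CPM in the other libraries). Of that mesothelium sum, the keratin genes Krt8, Krt18 and Krt19 held 341, 185 and 99.5 CPM. Msln, Upk3b, Wt1, Lrrn4, Upk1b and Gpm6a were each highest in another library. VX_Veh1 held the highest level of 13 of the 14 cilia genes, with Foxj1, the regulator of ciliated cell fate, at 284 CPM. VX_SHU4 and VX_Veh4, with 69.5 and 52.3 CPM of cilia markers and 10.6 and 8.92 CPM of Cyfip2, were the 2 libraries richest in epididymis markers.

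With the log2 sums of epididymis, testis and cilia markers as covariates, the Cyfip2 difference was −0.23 after sham surgery and 0.02 after vagotomy. In the same fit Fmr1 was at 1.098 and 0.65 and Cyfip1 at 0.20 and 0.09. The 7 libraries whose epididymis or testis markers summed to at least 500 CPM were then left out. This kept 2 libraries in each sham group and 2 in VX_Veh, and VX_SHU lost VX_SHU4. Cyfip2 was then at −1.47 after sham surgery (edgeR adjusted p = 0.0188, range over 22 alternatives 0.0188 to 0.619) and −0.54 after vagotomy (0.511), and Fmr1 at 1.09 and 0.74. In this setting 4450 genes passed after sham surgery. Cilia markers summed to 541 and 527 CPM in the Sham_Veh libraries kept and to 64.6 and 97.4 CPM in the Sham_SHU libraries kept. Those left out held 63.3 and 415 CPM in Sham_Veh and 242 and 86.6 CPM in Sham_SHU. Neuron markers summed to 7.64 to 35.4 CPM over all libraries, highest in VX_Veh1, where Rbfox3 alone was at 26.9 CPM. Syt1 and Prph were also highest in VX_Veh1, and the other neuron markers were highest in other libraries. T and B cell markers summed to 52.0 to 79.4 CPM, with Ptprc alone at 27.2 to 52.4 CPM. The part of neurons, lymphocytes and mesothelium in the Cyfip2 level was not tested.

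Of the 4 partner genes, 0 passed for SHU9119 after sham surgery, after vagotomy or in the average by edgeR, against 0.114%, 0.00599% and 1.87% of all genes. At an unadjusted p under 0.05 there were 1 after sham surgery (Cyfip1), 0 after vagotomy and 2 in the average (Cyfip1 and Cyfip2), against 19.6%, 11.6% and 28.5% of all genes. DESeq2 called 1, 0 and 2, against 7.22%, 0.324% and 16.7% of all genes.

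Levels of different genes were compared per length, as CPM per kilobase of merged exons. In Sham_SHU Fmr1 was at 47.8 ± 5.94, Fxr2 at 23.4 ± 1.55, Fxr1 at 15.9 ± 2.16, Cyfip1 at 10.1 ± 0.39 and Cyfip2 at 0.75 ± 0.204 CPM per kilobase (SD, n = 4). In Sham_Veh Fmr1 and Fxr2 were at 21.0 ± 3.77 and 22.4 ± 2.18, which do not differ beyond their spread. The order of these 2 genes depended on the length used, since with the longest transcript Fmr1 led in Sham_Veh at 42.8 ± 7.66, against 28.6 ± 2.79 for Fxr2. Cyfip1 and Cyfip2 held the last 2 places with both lengths.

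Fmr1 made up 54.7 ± 3.99% of the summed per-length level of Fmr1, Fxr1 and Fxr2 in Sham_SHU and 34.9 ± 6.33% in Sham_Veh. The shares were 44.1 ± 4.42% in VX_SHU and 31.3 ± 3.35% in VX_Veh (SD, n = 4 each). The share follows Fmr1 and is a description. In single libraries it was 49.0 to 58.2% in Sham_SHU against 28.4 to 41.3% in Sham_Veh, and 40.9 to 50.6% in VX_SHU against 28.4 to 36.1% in VX_Veh. Cyfip2 made up 10.7 ± 3.79% of the Cyfip1 and Cyfip2 level in VX_SHU and 17.0 ± 6.58% in VX_Veh, which includes VX_Veh1 at 26.8%, and 6.90 ± 1.94% in Sham_SHU and 12.4 ± 3.09% in Sham_Veh.

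**Figure D4:**
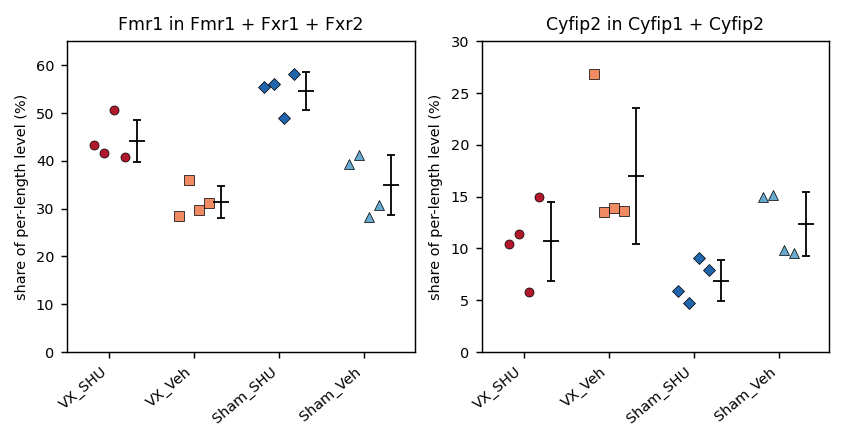
Share of Fmr1 in the summed per-length level of Fmr1, Fxr1 and Fxr2 (left, %) and of Cyfip2 in that of Cyfip1 and Cyfip2 (right, %), with 1 point per library and the group mean and SD. The Fmr1 share is above 48% in all Sham_SHU libraries and below 42% in all Sham_Veh libraries.

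Relations between the members across libraries were examined on log2 CPM with group means removed, so that differences between groups did not enter. Of the 10 pairs, 0 passed after adjustment. The closest positive relation was that of Fmr1 with Cyfip1, with Pearson r = 0.68 (permutation p = 0.0173, adjusted p = 0.0865) and Spearman rho = 0.67 (permutation p = 0.0124, adjusted p = 0.0622) over 16 libraries. Without Sham_Veh3 and Sham_SHU3, the libraries farthest from the median of Fmr1, r was 0.78. Fxr2 and Cyfip2 ran in opposite directions, with r = −0.75 (permutation p = 0.00537, adjusted p = 0.0537) and rho = −0.72 (permutation p = 0.00584, adjusted p = 0.0584), and r = −0.65 without VX_Veh1 and Sham_Veh3. Fmr1 had r = −0.14 with Fxr1 and 0.18 with Fxr2 (permutation p = 0.672 and 0.543).

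Among 11758 protein-coding genes with a mean of at least 5 CPM, those with the pattern most like Fmr1 over all 16 libraries were Anxa1 (r = 0.97), Olfm1 (0.96), Ppp1r3d (0.96), Calu (0.96), Tuba1a (0.95) and Npr3 (0.95). These values include the SHU9119 difference that led to the choice of Fmr1. With group means removed, the 6 closest were Lpgat1 (0.90), Cxcr4 (0.90), Anxa1 (0.88), Npr3 (0.88), Fam217b (0.87) and Tmem65 (0.87). Anxa1, an annexin that dampens inflammation, and Npr3, a clearance receptor for natriuretic peptides, were in both sets. For Fxr1 the closest were Ints6 (0.99) and Usp47 (0.97), both at their highest in Sham_Veh4, with r = 0.97 and 0.94 when that library was left out. For Cyfip2 they were the chloride channel gene Ano1 and the growth factor receptor gene Fgfr2 (0.97 each), both highest in VX_Veh1, with r = 0.96 for each without it. For Fxr2 they were Tmem205 and Pym1 (0.95 each), and for Cyfip1 Mon1b (0.93) and Snap23 (0.91). All are descriptions over the same 16 libraries.

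Genes that work with the members were examined in 5 lists. For SHU9119 averaged over both surgeries, 28.5% of all genes had an unadjusted p under 0.05 and DESeq2 called 16.7%, which are the shares to read the counts of each list against. Of 23 genes for proteins of FMRP-containing granules and silencing complexes, 0 passed for SHU9119 averaged over both surgeries by edgeR, 4 had an unadjusted p under 0.05 and DESeq2 called 3. Their median log2 fold change was 0.01, against −0.04 over all genes. The smallest p values were those of Ago2, the slicing Argonaute (0.33 ± 0.0898; edgeR adjusted p = 0.0654), and Top3b, a topoisomerase that also acts on RNA (−0.13 ± 0.0445; 0.0905). Described FMRP mRNA targets, known mostly from mouse brain, had a median of −0.07 with 0 of 14 tested past the threshold, 3 at an unadjusted p under 0.05 and 3 by DESeq2. App, the amyloid precursor gene (0.30 ± 0.0751; edgeR adjusted p = 0.058), and Tsc2, which restrains mTOR (0.23 ± 0.0817; 0.0981), came first.

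The WAVE complex and Rac genes, which include the partners of the Cyfip proteins, had a median of 0.14 with 9 of 12 positive. By edgeR 0 passed, 5 had an unadjusted p under 0.05 and DESeq2 called 4. Nckap1, the subunit that binds Cyfip proteins directly, was at 0.24 ± 0.0599 (edgeR adjusted p = 0.0551) and Wasf2, the WAVE protein found in most tissues, at 0.27 ± 0.0763 (0.0697). The Arp2/3 complex, which WAVE activates, had 8 of 9 positive and a median of 0.13, with 0 past the threshold, 6 at an unadjusted p under 0.05 and 4 by DESeq2. Arpc4 (0.20 ± 0.0569; edgeR adjusted p = 0.0673) and Actr3 (0.15 ± 0.0592; 0.118) came first.

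Of 18 genes of cap-dependent translation initiation, 1 passed by edgeR (1.87% of all genes), and it was lower under SHU9119. At an unadjusted p under 0.05 there were 10, and DESeq2 called 8. Eif4a2, an RNA helicase of the cap-binding complex, averaged 357 ± 2.69 CPM in Sham_SHU and 451 ± 55.2 in Sham_Veh, and 389 ± 33.5 in VX_SHU and 452 ± 36.8 in VX_Veh (SD, n = 4 each). The averaged log2 fold change was −0.28 ± 0.0657 (edgeR adjusted p = 0.0499), at the edge of the threshold, with an adjusted p of 0.0349 to 0.113 when single libraries were left out and of 0.000565 to 0.471 over 22 alternatives. The list had a median of 0.13 with 15 of 18 positive, so Eif4a2 ran against most of it. For SHU9119 after sham surgery and after vagotomy singly, 0 genes of these 5 lists passed by edgeR, and after sham surgery DESeq2 called 2 granule, 1 WAVE, 1 Arp2/3, 6 initiation and 1 target gene, with 3, 4, 1, 8 and 3 at an unadjusted p under 0.05 (7.22% and 19.6% of all genes). After vagotomy DESeq2 called 0, with 1, 3, 0, 2 and 1 at an unadjusted p under 0.05 (0.324% and 11.6% of all genes).

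**Figure D5:**
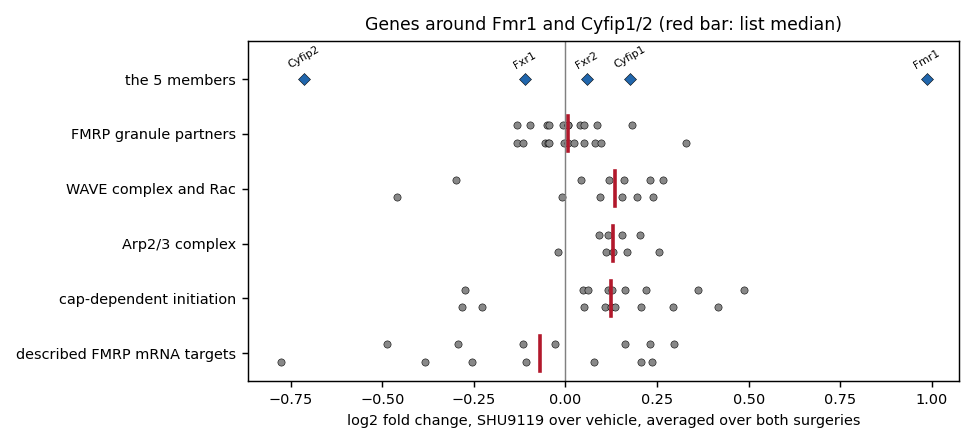
Log2 fold change of SHU9119 over vehicle averaged over both surgeries for the 5 members (diamonds) and for each gene tested of 5 lists (circles), with the list median as a red bar. Fmr1 at 0.99 lies beyond all genes of the lists, whose highest value is 0.49, and the list medians lie between −0.07 and 0.14.

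Genes next to Fmr1 on the chromosome gave little to compare. Within 250 kilobases the annotation holds 2 protein-coding genes, of which only Fmr1nb passed the filter, at 0.25 to 0.77 CPM as group means, with −0.23 ± 0.563 for the averaged SHU9119 difference (edgeR adjusted p = 0.813). None of the neighbours of the other members passed in that comparison by edgeR (0 of 3 for Fxr1, 0 of 30 for Fxr2, 0 of 5 for Cyfip1 and 0 of 9 for Cyfip2), with 3, 9, 3 and 0 at an unadjusted p under 0.05 and 2, 7, 2 and 0 called by DESeq2 (28.5% and 16.7% of all genes). By size of p the first were Ccdc39, a cilia gene (−1.78 ± 0.594), and Ttc14 (−0.24 ± 0.0818) near Fxr1, the RNA polymerase subunit gene Polr2a (0.15 ± 0.0382) and Eif4a1 (0.29 ± 0.0814) near Fxr2, Nipa1 (0.39 ± 0.11) and Nipa2 (0.18 ± 0.0647) near Cyfip1, and Adam19 (0.21 ± 0.107) and Havcr2 (0.25 ± 0.179) near Cyfip2. Nipa2, which overlaps Cyfip1, averaged 27.0 ± 3.11 CPM in Sham_SHU and 21.8 ± 1.01 in Sham_Veh, a lower level than that gene's.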

How the data were processed

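Sequencing covered polyA RNA from gonadal fat of mice, with 4 libraries in each of 4 groups. The deposited table holds raw counts per NCBI gene number; bcl2fastq, TopHat, edgeR and the mm10 build are named without versions, per the submitters' processing notes. Counting tool, annotation and strand setting: not given in the sources used here. Of 24454 gene numbers, 24374 were matched to RefSeq names, and the others held 0.557% to 1.24% of the counts. Merged exon lengths came from GENCODE M21. The members and lists were chosen with earlier results of these data known.

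Counts were analysed in R 4.3.3 with edgeR 4.0.16: filterByExpr kept 16682 of 21661 genes with any count, TMM scaling was used, and all 16 libraries entered a robust quasi-likelihood fit with a mean for each group, leaving 12 residual degrees of freedom. P-values were adjusted by Benjamini-Hochberg over all genes, with 0.05 as threshold. The standard error of a log2 fold change was its size divided by the square root of the F statistic. A prior count of 2 went into log2 CPM. Marker sums were compared by exact permutation of 4 against 4 libraries (70 assignments; smallest p 0.0286), member pairs by 100000 permutations within groups.

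Named were the 5 members; of each list and the neighbours, genes past the threshold, else the 2 smallest p in the averaged SHU9119 comparison; and the genes with the highest r with a member. Genes given for an overlap or as markers were named besides. Alternatives were DESeq2 size factors, no filter, DESeq2 1.42.0, the replicate number as a block, leaving out 7 libraries whose epididymis or testis markers reached 500 CPM, marker sums as covariates, and leaving out each library. All 24 replicate pairs differed beyond sampling noise (chi-square per degree of freedom 11.8 to 203.9). The steps were tested on simulated counts.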

Additional observations from a re-analysis of the deposited data

Results flagged for a closer look

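In 4 of 28 checks, 1 library stood apart from the other 3 of its group by Dixon's criterion. Chance gives about 1 in 20. Fmr1 was at 349 CPM in Sham_SHU3, against 447 to 459 CPM in the other Sham_SHU libraries. Fxr1 was at 178 CPM in Sham_Veh4, against 84.6 to 92.7 CPM in the other Sham_Veh libraries. Cyfip2 was at 21.1 CPM in VX_Veh1, against 8.92 to 9.80 CPM in the other VX_Veh libraries. Its share of the summed Cyfip1 and Cyfip2 level was 26.8% in VX_Veh1, against 13.5 to 13.9% in the others.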

How the results depend on the processing

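Over 7 comparisons and 22 alternatives, Fmr1 kept its direction in 154 of 154 values, Cyfip1 in 154, Cyfip2 in 144, Fxr1 in 143 and Fxr2 in 132. Most alternatives left out a single library and so shared most of their data. For Fmr1 the values include the SHU9119 comparisons that led to its choice, so its count is a description and not support. Counts of genes past the threshold for SHU9119 after sham surgery, after vagotomy and in the average (19, 1 and 312) were less stable. They were 1205, 54 and 2792 by the DESeq2 test, 4450, 0 and 4221 without libraries with epididymis or testis markers, and 1, 0 and 0 with marker covariates. After vagotomy the count was 0 with DESeq2 size factors and with no filter, which gave 167 in the average. DESeq2 gave 11, 93 and 409 genes for vagotomy under vehicle, under SHU9119 and averaged, and 8 for the interaction, where edgeR gave 0. Its Fmr1 values for vagotomy were −0.72 under SHU9119 and −0.52 averaged.

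Leaving out single libraries gave 0 to 982 genes after sham surgery (982 without Sham_SHU3), 0 to 1 after vagotomy and 3 to 1612 in the average, and 0 to 1, 0 to 3, 0 to 0 and 0 to 1 for vagotomy under vehicle, under SHU9119, averaged and the interaction. Fmr1 then ranged from 1.07 to 1.29, 0.63 to 0.89 and 0.91 to 1.05 for SHU9119, from −0.44 to −0.21, −0.88 to −0.64 and −0.60 to −0.46 for vagotomy, and from −0.56 to −0.28 for the interaction. With the longest transcript as length, the Fmr1 share was 50.1% in VX_SHU, 36.4% in VX_Veh and 59.9% in Sham_SHU, and that of Cyfip2 6.47% in VX_SHU, 10.6% in VX_Veh, 4.10% in Sham_SHU and 7.54% in Sham_Veh. Without removing group means 4 member pairs passed.

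Same-numbered libraries did not all deviate together (24 pairs, r of −0.69 to 0.68, 13 over 0.1). Their median r was 0.179, against −0.025 in the 72 pairs with different numbers. Deviation shared by part of the same-numbered libraries is therefore not excluded. With the replicate number as a block, 0 genes passed for SHU9119 after sham surgery, after vagotomy or averaged, and Fmr1 was at 1.19, 0.81 and 1.00, with −0.32, −0.70 and −0.51 for vagotomy and −0.38 for the interaction. Cyfip2 rested on 90 to 486 counts per library, and its biological coefficient of variation was 37.9%. The cause of these changes was not tested.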
